A study of Mus musculus with 6 samples.

Results

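To determine how the AP-1 and Egr immediate early genes were expressed in muscle carrying a leaky DUX4 transgene, the counts of 10 genes were compared between FLExDUX4 mice and their wild-type (WT) littermates. The genes were Fos, Fosb and Fosl2 of the Fos subfamily, Jun, Junb and Jund of the Jun subfamily, Egr1 and Egr3 of the Egr family, Atf3 and Ier2. They were picked out by symbol among the 52550 mouse genes of the count table, and the list was drawn up with earlier results of these data known. The RNA was quadriceps RNA of male mice, given by the sample labels as 13 weeks old, with 3 FLExDUX4 mice and 3 WT mice; the methods of the study name the triceps of younger males for RNA sequencing, and tissue and age here follow the labels. In FLExDUX4 mice a human DUX4 coding unit sits backwards in the genome with lox sites on each side, so that Cre can turn it round, and DUX4 is the gene whose expression in muscle causes facioscapulohumeral muscular dystrophy (FSHD). No Cre driver was present in either group, so any DUX4 RNA came from leakage of the unrecombined construct, and the WT littermates lacked the transgene. The human gene had 0 rows in the table and the mouse gene Duxf3 had 0 counts in both genotypes, so the genotype labels could not be checked against the transgene.

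The values used are 1 total per genotype, the counts of the 3 mice added together. The FLExDUX4 total held 13110125 counts on genes and the WT total held 18367364. The names of the 6 per-sample columns match no sample label, so no spread between mice was computed, no test was run and no p-value is given. Whether a difference exceeded the spread between mice cannot be told from the totals, and 1 mouse with a high or low level could decide any of them. Levels are given in CPM, the usual unit of counts relative to library size, after TMM scaling, which sets the bulk of genes equal between the genotypes. The 95% intervals cover counting error only. The library type reads the 3′ end of each transcript about once, so CPM values were compared between genes without dividing by length. In whole muscle, fewer cells of a type and less RNA per cell cannot be told apart.

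Immediate early genes are switched on within minutes of a stimulus by transcription factors already present in the cell, and their mRNAs are short-lived. Fos and Jun proteins pair through leucine zippers to form AP-1, which binds DNA. Fos proteins need a partner from outside the Fos subfamily, such as a Jun protein, whereas Jun proteins can also pair with each other. Egr proteins are zinc finger factors that bind GC-rich sites, Atf3 is a stress-induced member of the ATF/CREB family, and Ier2 is a nuclear immediate early response protein. In skeletal muscle, contraction and injury are known to induce many of these genes.

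The promoters of 7 of the 10 genes were in the RefSeq table used (GRCm38.p6), which did not list Egr1, Egr3 or Ier2. The 250 bases before the start site are shown for Fos, which had the lowest FLExDUX4/WT ratio among the members, for Junb, which shares its motif, and for Jun, which had the most counts. The Fos stretch lies at chr12:85473640-85473889 on the plus strand, the Junb stretch at chr8:84978749-84978998 on the minus strand and the Jun stretch at chr4:95052223-95052472 on the minus strand. Each is written 5′ to 3′ toward the gene, and capitals mark TGACG, the core of the cAMP response element through which CREB and ATF factors bind.
Fos: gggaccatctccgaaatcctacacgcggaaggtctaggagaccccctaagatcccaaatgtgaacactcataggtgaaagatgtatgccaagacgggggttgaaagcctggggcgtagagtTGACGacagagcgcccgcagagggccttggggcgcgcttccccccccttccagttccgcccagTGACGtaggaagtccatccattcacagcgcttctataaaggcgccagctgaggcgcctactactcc
Junb: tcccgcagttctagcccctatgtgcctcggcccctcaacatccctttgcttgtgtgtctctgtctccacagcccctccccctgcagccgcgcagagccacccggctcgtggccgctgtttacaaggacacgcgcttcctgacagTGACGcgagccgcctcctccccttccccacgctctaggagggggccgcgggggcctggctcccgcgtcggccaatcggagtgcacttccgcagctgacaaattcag
Jun: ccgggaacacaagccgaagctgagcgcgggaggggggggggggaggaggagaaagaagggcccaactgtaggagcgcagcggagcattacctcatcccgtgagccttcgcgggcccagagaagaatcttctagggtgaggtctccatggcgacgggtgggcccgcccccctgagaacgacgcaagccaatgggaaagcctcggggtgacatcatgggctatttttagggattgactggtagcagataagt

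TGACG, searched on both strands, occurred in 4 of the 7 promoters (Fos, Fosb, Junb and Atf3), against 17.8% of the 32851 promoters in the table. Fos held it at -129 to -125 and again at -66 to -62, counted from the base before the start site as -1. Fos was also the one member promoter with the forward-strand TATA box TATAAA, at -33 to -28, against 7.59% of all promoters. The whole palindromic element TGACGTCA, which contains TGACG, was in 0 of the 7 and in 1.55% of all. The AP-1 site TGANTCA was in 0 of the 7 and in 6.75% of all, also on both strands. The CArG box bound by serum response factor was in 0 of the 7 windows and in 1.47% of all. Sites further upstream than these 250 bases were not searched for any motif, so their absence from a gene cannot be read from this. The Egr site GCGNGGGCG was in Fosb and Fosl2 and in 4.70% of all promoters. A match is a match of the letters searched, so other variants of a motif were not counted, and no binding was measured. The table's start site was the annotated gene start for Fos and Jun, but lay 671 bases from it for Fosl2, 1210 bases from it for Jund and 34706 bases from it for Atf3.

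The 3′ ends of the transcripts carried the ATTTA pentamer of AU-rich elements, which are known to speed mRNA decay. In the transcript with the longest 3′ UTR (GENCODE M21), 9 of the 10 genes held at least 1 ATTTA, against 71.2% of the 11820 compared genes with a 3′ UTR. The density was 4.91 per kilobase in Fos, 4.12 in Junb and 3.24 in Jun, and 8 of the 10 genes were above the median of all genes, 1.34 per kilobase. Ier2 held 0 copies in 755 bases. The densest stretch of 30 bases is shown for 3 genes, with ATTTA in capitals, at UTR bases 632 to 661 for Fos, 3669 to 3698 for Fosl2 and 1028 to 1057 for Jun.
Fos: aacgtttttattgtgttttcaATTTATTTA
Fosl2: agaagaaattgacATTTAttttattATTTA
Jun: gtgatcATTTAtaatcataggaaagATTTA

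Jun, Junb, Jund and Ier2 each had 1 exon, as did 2.24% of the compared genes. Unspliced and spliced RNA of such genes give the same sequence.

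Of the 10 genes, 8 had a lower level in the FLExDUX4 total than in the WT total and 2, Atf3 and Ier2, a higher one. Of the 9 members that passed the filter on low counts, 7 were lower, beside 50.1% of all 13396 genes compared. The counting interval lay wholly below a ratio of 1 for 7 of the 10 genes, against 20.6% of all genes compared. It held 1 for Fosb and Atf3 and lay above it for Ier2. The median log2 ratio FLExDUX4/WT of the 10 genes was -0.68, beside -0.001 for all genes compared. The median over the 9 genes that passed the filter on low counts was -0.60; Egr3 passed through its WT counts alone and Fosb did not pass.

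Past 2-fold, 3 of the 10 genes were lower (Fos, Egr3 and Fosb) and Ier2 was higher. Of the 9 members that passed the filter, 2 were lower past 2-fold, Fos and Egr3. At this threshold 7.43% of all genes compared were lower and 5.99% were higher. Both Egr3 and Fosb had few counts. With at least 60 counts over both totals, 8 members remained, of which Fos alone was 2-fold lower, a size reached by 2.67% of the 10475 genes with that many counts, and Ier2 alone was 2-fold higher, as were 2.10%.

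**Figure D1:**
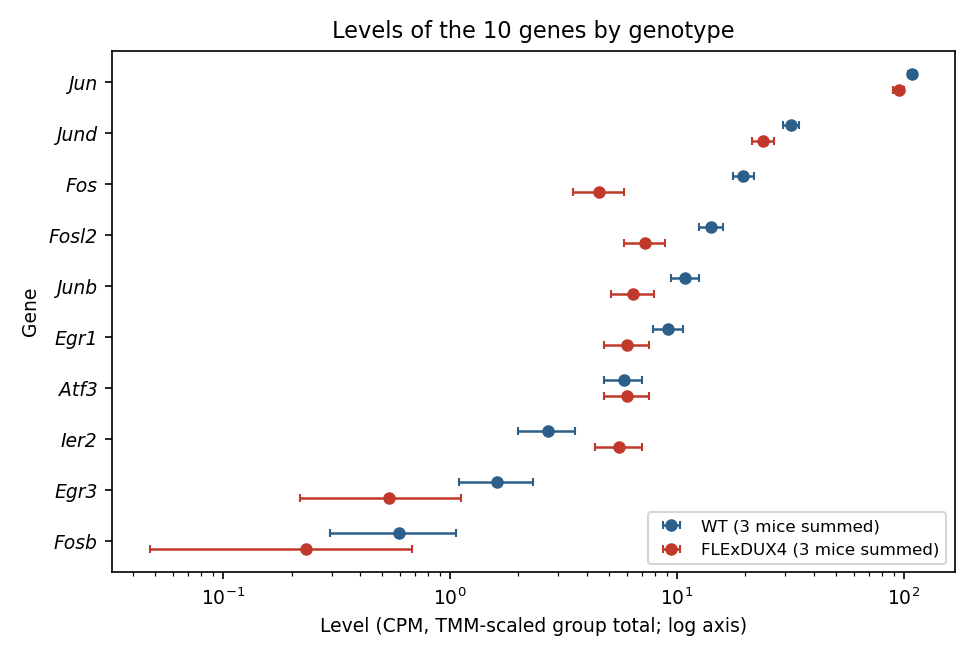
Level of each of the 10 genes in CPM on a log axis, in the summed counts of 3 WT mice (blue) and 3 FLExDUX4 mice (red); bars are 95% counting intervals and do not show spread between mice. Jun was highest in both genotypes, and the intervals were apart for Fos, Fosl2, Junb, Jund, Egr1, Jun and Ier2.

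Fos (ENSMUSG00000021250, GRCm38 chromosome 12, 85473890 to 85477273, plus strand, 4 exons) encodes the founding AP-1 partner of Jun. It had 59 counts in FLExDUX4 and 364 in WT. These are 4.55 CPM (3.46 to 5.87) and 19.6 CPM (17.6 to 21.7). The log2 ratio was -2.10 (-2.53 to -1.71), a level 4.28-fold lower in FLExDUX4. Among the 10475 genes with at least 60 counts, 17 had a ratio as low as that of Fos or lower, Fos included, or 0.162%. In WT muscle Fos was the third most abundant of the 10 genes, and in FLExDUX4 it was the eighth, above Egr3 and Fosb. The order in WT was Jun, Jund, Fos, Fosl2, Junb, Egr1, Atf3, Ier2, Egr3 and Fosb, and of these neighbours Junb and Egr1, and Ier2 and Egr3, had overlapping intervals. In FLExDUX4 the intervals of Fosl2, Junb, Egr1, Atf3, Ier2 and Fos all overlapped, as did those of Egr3 and Fosb.

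Fosl2 (ENSMUSG00000029135, chromosome 5, 32135801 to 32157842, plus strand) encodes Fra-2, a Fos protein without the strong activation domain of Fos. It had 94 counts in FLExDUX4 and 263 in WT, or 7.24 CPM (5.85 to 8.87) and 14.2 CPM (12.5 to 16.0). The log2 ratio was -0.96 (-1.32 to -0.62), or 1.95-fold lower. Fosl2 had a ratio just short of 2-fold, and 2.92% of genes with at least 60 counts were as low.

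Fosb (ENSMUSG00000003545, chromosome 7, 19302696 to 19310051, minus strand), which also gives rise to the stable splice form ΔFosB, was near the detection limit. It had 3 counts in FLExDUX4 and 11 in WT. The log2 ratio of -1.20 had an interval of -3.84 to 0.56, so a difference was not detectable at this depth. Fosl1, the remaining Fos gene, had 0 counts in both totals.

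Jun (ENSMUSG00000052684, chromosome 4, 95049034 to 95052222, minus strand) was the most abundant member in both genotypes. It had 1228 counts in FLExDUX4 and 2017 in WT, which are 94.6 CPM (89.4 to 100.1) and 108.7 CPM (104 to 113.5). The log2 ratio was -0.20 (-0.30 to -0.10), a 1.15-fold lower level. Among genes with at least 60 counts, 26.3% had a ratio as low as that of Jun or lower. With spike-in scaling, which lowers every gene alike, the log2 ratio of Jun was -0.48. The antisense gene Junos overlaps 689 bases of Jun and had 16 counts in FLExDUX4 and 6 in WT.

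Jund (ENSMUSG00000071076, chromosome 8, 70698949 to 70700616, plus strand) encodes the Jun protein that many resting tissues express constitutively. It had 310 counts in FLExDUX4 and 592 in WT, or 23.9 CPM (21.3 to 26.7) and 31.9 CPM (29.4 to 34.6). The log2 ratio was -0.42 (-0.62 to -0.22), or 1.33-fold lower. Jund stayed the second most abundant of the 10 genes in both genotypes.

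Junb (ENSMUSG00000052837, chromosome 8, 84974484 to 84978718, minus strand), a Jun protein linked to muscle mass, had 83 counts in FLExDUX4 and 202 in WT. The levels were 6.40 CPM (5.10 to 7.93) and 10.9 CPM (9.43 to 12.5). The log2 ratio was -0.76 (-1.15 to -0.39), or 1.70-fold lower, the lowest of the Jun subfamily. The last 351 bases of Junb overlap the opposite-strand gene Prdx2, a peroxiredoxin with 917 and 1388 counts and a log2 ratio of -0.08. Whether the counting used strand was not given in the sources used here, so Junb counts are uncertain. The genes that overlap Jund and Atf3 on the opposite strand had 0 counts in both totals.

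**Figure D2:**
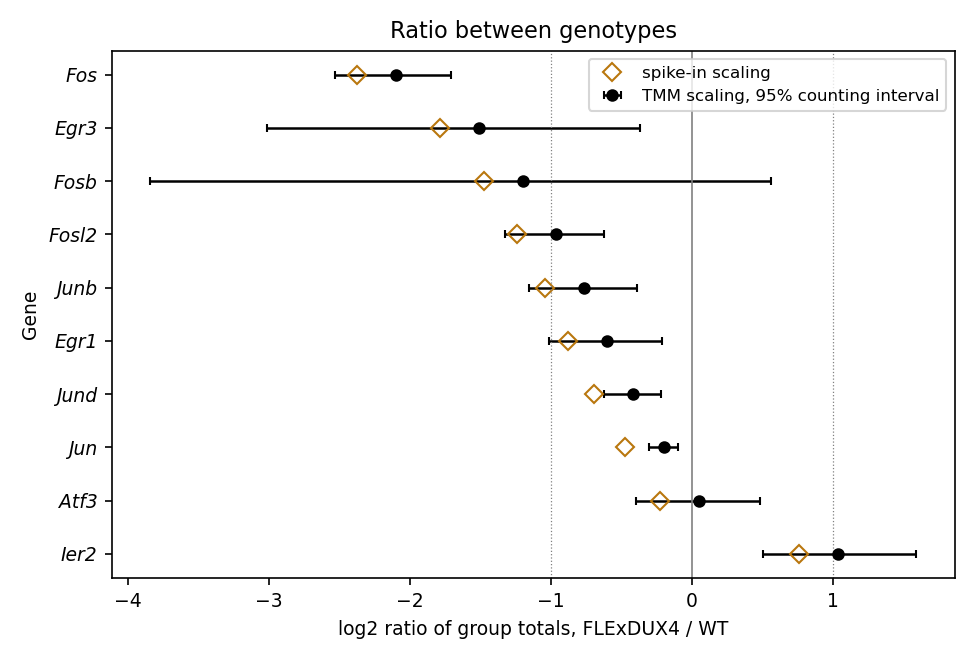
Log2 ratio FLExDUX4/WT of the 10 genes; black points use TMM scaling and carry 95% counting intervals, open diamonds use the spike-in totals, and dotted lines mark 2-fold. Fos had the lowest ratio, -2.10, and Ier2 the highest, 1.04, and Atf3 was above 0 with TMM scaling and below 0 with the spike-ins.

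Egr1 (ENSMUSG00000038418) and Egr3 (ENSMUSG00000033730, chromosome 14, 70077203 to 70082614, plus strand) encode zinc finger factors, and Egr3 is known for its role in muscle spindle development. Egr1 had 78 counts in FLExDUX4 and 170 in WT, or 6.01 CPM (4.75 to 7.50) and 9.16 CPM (7.83 to 10.6). Its log2 ratio was -0.60 (-1.01 to -0.21), or 1.52-fold lower. Egr3 had 7 counts in FLExDUX4 and 30 in WT, with a log2 ratio of -1.51 (-3.01 to -0.37). Egr1 and Egr3 were both lower, and the wide interval of Egr3 covered the ratio of Egr1.

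Atf3 (ENSMUSG00000026628, chromosome 1, 191170296 to 191218039, minus strand) encodes a stress-induced factor that pairs with Jun proteins. It had 78 counts in FLExDUX4 and 108 in WT, which are 6.01 CPM (4.75 to 7.50) and 5.82 CPM (4.77 to 7.03). The log2 ratio was 0.05 (-0.39 to 0.48) and turned to -0.23 with spike-in scaling, so no direction was read for Atf3.

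Ier2 (ENSMUSG00000053560, chromosome 8, 84661331 to 84662852, minus strand) went the other way. It had 72 counts in FLExDUX4 and 50 in WT, although the WT total was the deeper one. The levels were 5.55 CPM (4.34 to 6.99) and 2.69 CPM (2.0 to 3.55), and the log2 ratio was 1.04 (0.50 to 1.59). With spike-in scaling the ratio was 0.76, still above 0. Among genes with at least 60 counts, 98.1% had a ratio as low as that of Ier2 or lower.

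**Figure D3:**
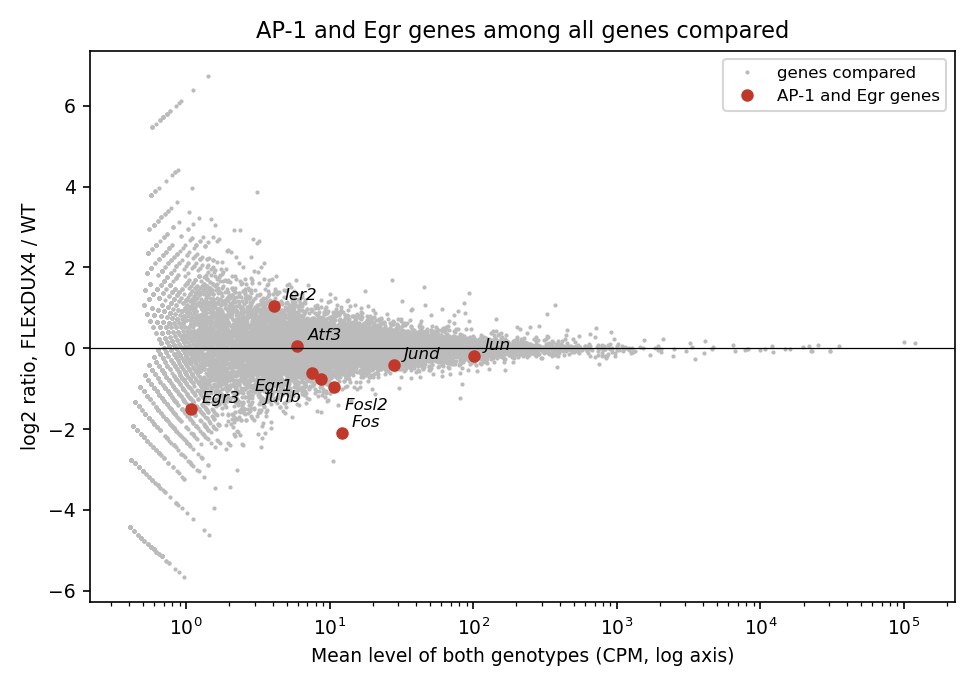
Log2 ratio FLExDUX4/WT against the mean level of both genotypes (CPM, log axis) for the 13396 genes compared (grey) and the 9 member genes among them (red). Fos lay at the lower edge of the cloud for its level, Ier2 toward the upper edge, and Jun, Jund and Atf3 within it.

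Spike-in RNAs gave 220016 counts in FLExDUX4 and 259913 in WT. Scaling by them in place of TMM lowered every log2 ratio by 0.28, the median of all genes included. Then 9 of the 10 members were lower, against 74.8% of all genes compared, and 5 were lower by 2-fold, against 11.0%. Of the 9 members that passed the filter 8 were lower, and the 5 include Fosb, which did not pass. The ratios relative to other genes stayed as they were. The 10 genes together had 2012 counts in FLExDUX4 and 3807 in WT, or 155 and 205 CPM, with a log2 ratio of -0.40 (-0.48 to -0.33). Jun made up most of both sums. Without Jun the sums were 784 and 1790 counts and the log2 ratio was -0.67 (-0.80 to -0.55).

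To compare the members with each other without any scaling, counts were set against those of another member in the same total. For every 100 Jun counts there were 4.80 Fos counts in FLExDUX4 and 18.05 in WT, a log2 change of -1.91 (-2.34 to -1.49). For Fosl2 the figures were 7.65 and 13.0 per 100 Jun counts, a log2 change of -0.77 (-1.14 to -0.41). For Junb they were 6.76 and 10.01, a log2 change of -0.57 (-0.97 to -0.18). These 3 genes were lower relative to Jun beyond counting error. Jund had 25.2 counts per 100 Jun counts in FLExDUX4 and 29.4 in WT, with an interval of the log2 change from -0.45 to 0.01. Egr1 had 6.35 and 8.43, and its interval also reached past 0. Atf3 had 6.35 and 5.35, a log2 change of 0.25 (-0.21 to 0.69). A difference from Jun was not detectable for Jund, Egr1 and Atf3 at this depth. Ier2 had 5.86 and 2.48 per 100 Jun counts, a log2 change of 1.24 (0.69 to 1.80). Fos and Ier2 lay furthest apart, with 81.9 Fos counts per 100 Ier2 counts in FLExDUX4 and 728 in WT.

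The balance between the AP-1 subfamilies differed accordingly. Fos, Fosb and Fosl2 made up 156 of 1777 Fos and Jun subfamily counts in FLExDUX4, or 8.78% (Clopper-Pearson 7.50 to 10.2), and 638 of 3449 in WT, or 18.5% (17.2 to 19.8). Within the Fos subfamily, Fos took 37.8% (30.2 to 45.9) of the counts in FLExDUX4 and 57.1% (53.1 to 60.9) in WT. Fosl2 took 60.3% (52.1 to 68.0) and 41.2% (37.4 to 45.2). Fos was thus the leading Fos gene in WT and Fosl2 in FLExDUX4, with intervals that did not overlap. Within the Jun subfamily the shares were closer. Jun took 75.8% (73.6 to 77.8) in FLExDUX4 and 71.8% (70.05 to 73.4) in WT. Jund took 19.1% (17.2 to 21.1) and 21.1% (19.6 to 22.6), which overlap. Junb took 5.12% (4.10 to 6.31) and 7.19% (6.26 to 8.20), whose intervals also overlap.

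**Figure D4:**
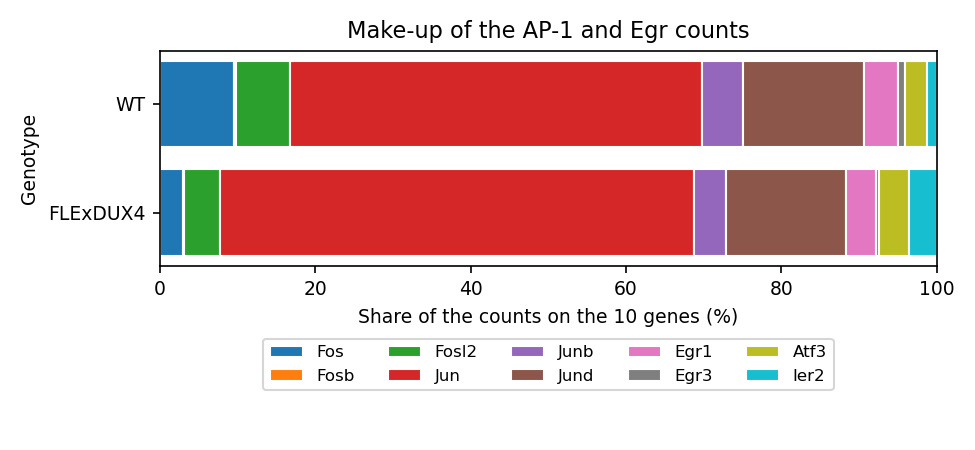
Share of the counts on the 10 genes taken by each gene, in percent, in the WT total (3807 counts) and the FLExDUX4 total (2012 counts). Jun took 53.0% in WT and 61.0% in FLExDUX4, Fos 9.56% and 2.93%, and Ier2 1.31% and 3.58%.

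Other subunits can pair with Fos and Jun proteins in place of the members. Of 11 listed genes of the AP-1 family outside the members, 7 were compared, with a median log2 ratio of 0.17. Of these 7, 2 were lower and 5 higher in FLExDUX4, beside 50.1% of all genes lower. With spike-in scaling 4 of these 7 were lower, beside 74.8% of all genes. Maff, a small Maf protein, had 61 counts in FLExDUX4 and 34 in WT, with a log2 ratio of 1.35 (0.73 to 2.01). Atf4, the factor of the integrated stress response, had the most counts, 1645 and 2321, with a log2 ratio of 0.02. The Jun dimerization protein gene Jdp2 had the lowest ratio, -0.27 (-0.78 to 0.22). Of the remaining Egr genes, Egr4 had 0 counts, and Egr2 had 12 counts in FLExDUX4 and 6 in WT, a log2 ratio of 1.46 (-0.01 to 3.22). Egr2 passed the filter on low counts through its FLExDUX4 counts alone, so no direction was read for it. The Egr corepressor genes had log2 ratios of -0.50 (-1.01 to -0.02) for Nab2 and -0.20 (-0.45 to 0.05) for Nab1.

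Of 37 other immediate early genes, 35 were compared, and 25 were lower and 10 higher in FLExDUX4, beside 50.1% of all genes lower. The median log2 ratio was -0.19, and -0.47 with spike-in scaling, where 30 of the 35 were lower, beside 74.8% of all genes. The interval lay wholly below a ratio of 1 for 13 of the 35, beside 20.6% of all genes. Past 2-fold, 5 were lower, beside 7.43% of all genes, and Myc was higher, with 22 and 7 counts, beside 5.99%. Among the 5, Dusp2 had 3 and 27 counts and passed the filter through WT alone, as Myc did through FLExDUX4 alone, so both had to differ to be compared. Nr4a2, an orphan nuclear receptor gene, had 34 counts in FLExDUX4 and 340 in WT, a log2 ratio of -2.79 (-3.36 to -2.29), lower than that of Fos. Gadd45g, a growth arrest gene, had 631 and 2120 counts and a log2 ratio of -1.23 (-1.36 to -1.10). Socs3, the cytokine signalling inhibitor, had 30 and 94 counts and a log2 ratio of -1.12 (-1.78 to -0.52). These 3 genes were the ones past 2-fold lower with at least 60 counts, beside 2.67% of all such genes. Among genes with that many counts Ctgf, the connective tissue growth factor gene, had the highest ratio, 0.97 (0.80 to 1.15), with 645 and 470 counts. Nr4a1, the exercise-responsive receptor with the most counts (1595 and 2876), had a log2 ratio of -0.33.

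SRF, its partners and CREB-type factors switch these genes on. Of 15 upstream transcription factor genes, 10 were lower and 5 higher, beside 50.1% of all genes lower, with a median log2 ratio of -0.08. With spike-in scaling 13 of the 15 were lower, beside 74.8% of all genes, and the median was -0.36. The SRF coactivator gene Mkl1 had the lowest ratio, -1.55 (-2.01 to -1.12), with 54 counts in FLExDUX4 and 227 in WT. Atf1 had the highest, 0.31. Of the MAP kinase cascade, 20 of 22 genes were compared, with a median of 0.07. Of these, 6 were lower and 14 higher, beside 50.1% of all genes lower. With spike-in scaling 17 of the 20 were lower, beside 74.8% of all genes. Map2k7, a kinase gene of the JNK branch, had the highest ratio among those with at least 60 counts, 0.48. Of 10 heat shock genes, which also answer to acute stress, 8 were lower and 2 higher, beside 50.1% of all genes lower. Their median was -0.14, and with spike-in scaling 8 of the 10 were lower as well, beside 74.8% of all genes. The summed level was 635 CPM in FLExDUX4 and 600.4 CPM in WT, a log2 ratio of 0.08 (0.04 to 0.12). That ratio turned to -0.19 with spike-in scaling. Hspb1 held 3117 of the 8244 summed counts in FLExDUX4 and 3079 of 11142 in WT. Dnajb1 had 66 and 214 counts and a log2 ratio of -1.17 (-1.60 to -0.78), while Hspb1 had 0.53.

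**Figure D5:**
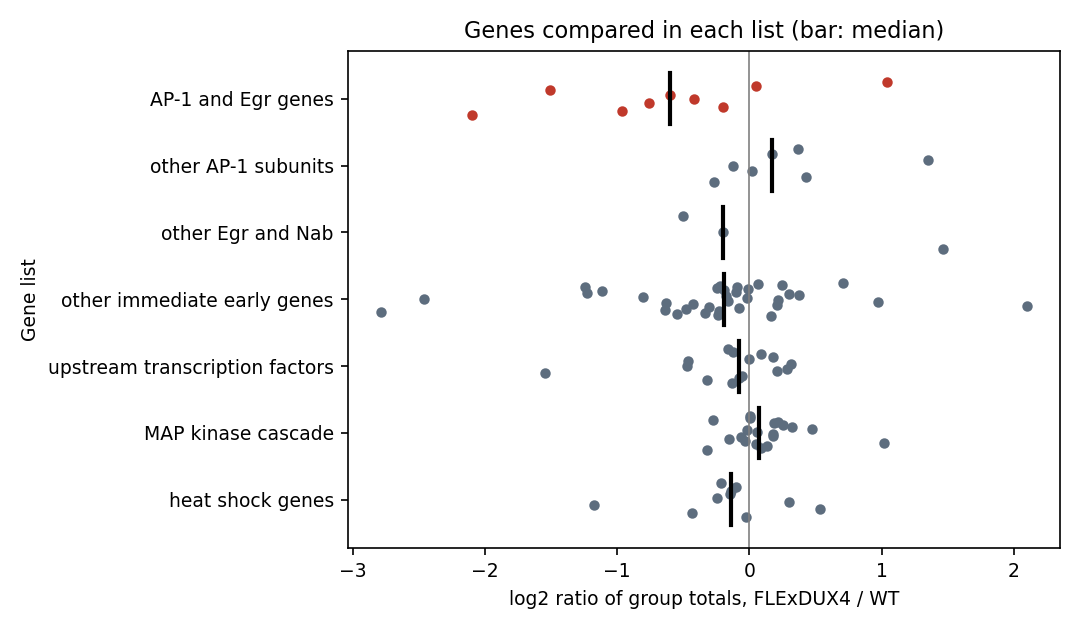
Log2 ratio FLExDUX4/WT of each gene compared in the member list (red) and in 6 lists of related genes (grey); vertical bars are medians. With TMM scaling medians lay below 0 for the AP-1 and Egr genes kept by the filter (-0.60) and other Egr and Nab genes (-0.20). They were also below 0 for other immediate early genes (-0.19), heat shock genes (-0.14) and upstream factors (-0.08). Those of the other AP-1 subunits (0.17) and the MAP kinase cascade (0.07) lay above 0 but turned to -0.10 and -0.20 with the spike-ins. The other Egr and Nab median rests on 3 genes, among them Egr2, which passed the filter through FLExDUX4 alone.

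Marker genes were used to check that the RNA came from skeletal muscle, which cannot tell quadriceps from triceps. The summed level of 10 muscle fiber markers, led by Acta1, was 129862 CPM in FLExDUX4 and 130972 CPM in WT, and each marker was detected. Many of the members are also known to be expressed in cells other than muscle fibers. The 8 endothelial markers summed to 196 CPM in FLExDUX4 and 224 CPM in WT, a log2 ratio of -0.20 (-0.27 to -0.12), and 6 of the 8 were lower, with Cldn5 at 17 and 63 counts. The 9 leukocyte markers summed to 85.1 and 86.4 CPM, with 5 lower and 4 higher. Among them the neutrophil gene S100a9 had 13 counts in FLExDUX4 and 105 in WT, a log2 ratio of -2.45, and the antigen presentation gene Cd74 had 228 and 236 counts, a log2 ratio of 0.47 (0.20 to 0.74). Satellite cell markers summed to 41.0 and 42.2 CPM, and of the 6 compared 3 were lower and 3 higher, from a log2 ratio of -0.82 for Pax7 to 0.56 for Chrdl2. The 6 adipocyte markers summed to 164 and 98.0 CPM, a log2 ratio of 0.74, and 5 of 6 were higher. Blood markers were higher in 5 of 5, with a median log2 ratio of 0.33, and mural cell markers in 6 of 6, with a median of 0.13. For each of these counts of markers, the share of all genes compared that were lower was 50.1%. The 8 fibro-adipogenic progenitor and fibroblast markers had a median of 0.05 and the 5 Schwann cell markers a median of 0.14. With spike-in scaling the median was 0.05 for blood and 0.27 for adipocyte markers. It turned to -0.15 for mural, -0.23 for fibroblast and -0.14 for Schwann cell markers. Endothelial, leukocyte and satellite cell markers had medians of -0.52, -0.30 and -0.28. The markers then lower were 7 of 8 endothelial, 6 of 9 leukocyte, 4 of 6 satellite cell and 2 of 6 adipocyte markers. Of the blood markers 1 of 5 were lower, and of the mural markers 4 of 6, beside 74.8% of all genes. Every marker of these lists had counts in at least 1 genotype. The part of these cell types in the levels of the AP-1 and Egr genes was not tested.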

How the data were processed

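Quadriceps RNA of 6 male mice was sequenced with QuantSeq 3′ FWD libraries. Per the labels and the study's methods, the authors trimmed reads with Cutadapt 1.16, checked them with FastQC 0.11.7, aligned them with STAR 2.5.3a to GRCm38 with spike-in sequences, counted with featureCounts 1.6.2 and compared genotypes with DESeq2. The deposited table gives raw counts as 1 total per genotype, which were the values used, and the authors' fold changes, p-values and mean normalized counts, which were not. Another 6 columns of per-sample values were not used, because their names match no sample label, so edgeR's test was not run.

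Spike-ins (99 of 52649 rows) were left out of library totals. Genes kept by filterByExpr were scaled with TMM (edgeR 4.0.16, R 4.3.3). Log2 ratios used a pseudocount of 0.5 and Clopper-Pearson 95% intervals, levels exact Poisson intervals and ratios between genes exact conditional intervals (scipy 1.17.1). Such intervals cover counting error only. The ratio script was tested on simulated data. Besides the members, genes were named from the lowest, the highest and the most counted of each list with at least 60 counts, and AP-1, Egr and immediate early genes past 2-fold. Of the other lists not all of these are printed. The choice to name Egr2, Egr4, Fosl1, Myc and the overlapping genes came after seeing their values. One gene that the rule names is not reported here. Symbols with 2 rows were taken from the row with more counts. The members and lists were chosen with earlier results of these data known. Promoters came from RefSeq (GRCm38.p6) and transcripts from GENCODE M21. Alternatives were other scalings (RLE, upper quartile, gene totals, spike-ins), filters and a pseudocount of 5.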

Additional observations from a re-analysis of the deposited data

How the results depend on the processing

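With spike-in totals in place of TMM, 5 members were lower by 2-fold instead of 3 and 9 were lower instead of 8; Fosl2 and Junb passed 2-fold and Atf3 turned to -0.23, with an interval that held 0. Jun moved from -0.20 to -0.48 and Jund from -0.42 to -0.69. Jund's share of Jun subfamily counts in WT was 22.7% when Junb was left out, against 21.1% with it. With a pseudocount of 5, 2 members were lower by 2-fold. The number of members lower was 8 under RLE, upper quartile and gene-total scaling, both other filters and the larger pseudocount. The median log2 ratio of the members lay between -0.52 (at least 10 counts in each total) and -0.88 (spike-in totals), and was -0.68 over all 10 members, an alternative chosen after seeing the data. Leaving out single mice and the edgeR and DESeq2 tests were not run, because the values used are 1 total per genotype. No paired analysis was possible because the totals carry no replicate numbers. Depth limited Fosb and Egr3 most, with 3 and 7 counts in FLExDUX4.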
